A study of Mus musculus with 4 samples.

Results

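The insulin-like growth factor (IGF) genes were followed in MC38 cells, a mouse colon carcinoma line, after editing of Cbfb. The members were chosen by gene symbol. They are the ligands Igf1 and Igf2, the receptors Igf1r and Igf2r, and the binding proteins Igfbp2, Igfbp3, Igfbp4, Igfbp5, Igfbp6 and Igfbp7, which makes 10 of the 26322 genes listed. The data are 4 libraries of 3′ mRNA sequencing, in which each read comes from the end of a transcript, so that reads do not grow with transcript length. Both groups received Cas9 nuclease and a synthetic guide by electroporation. The guide was non-targeting in the 2 libraries labelled WT (sgNT) and was directed at Cbfb in the 2 labelled CbfbKO (sgCbfb), and RNA was taken at least 1 week later. Cbfb encodes CBFβ, the partner subunit that helps RUNX transcription factors to hold DNA. The study's description adds that a further replicate of each group was collected but left out for poor RNA. The sources used here name 1 guide for each group and no cloning step, and they do not say whether replicates were separate electroporations, so the p-values measure the spread between these libraries, which may be technical.

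IGF1 and IGF2 are secreted growth factors that signal through IGF1R, a receptor tyrosine kinase of the insulin receptor family. The activated receptor recruits insulin receptor substrates such as IRS1, which pass the signal to PI3 kinase, AKT and mTOR and restrain FOXO transcription factors. IGF2R, the cation-independent mannose 6-phosphate receptor, carries no kinase: it takes IGF2 to the lysosome and sorts lysosomal enzymes. IGF binding proteins hold the ligands outside the cell, lengthen their life and govern their access to the receptor, and IGFBP6 is known for preferring IGF2 over IGF1. IGFBP7 binds IGFs weakly. IGF2 and IGF1R are both known for roles in colorectal cancer.

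In these cells the system was carried by few of its genes. Igfbp4 was the most abundant member, at 240 to 266 CPM (reads scaled to a common library total), followed by Igf2r, Igf1r, Igfbp6 and, at a low level, Igf2. The other 5 members had 3 reads or fewer in every library. Igfbp6 was the only member past the threshold, and it was lower in sgCbfb cells at 58.5% of its sgNT level. Outside the members, the receptor adaptor Irs1 (42.6% of its sgNT level), the kinase gene Sgk1 (57.8%) and the co-regulator gene Cited2 (66.4%) were also lower, whereas the RNA-binding protein gene Igf2bp1 was higher, at 312% of its sgNT level. Igfbp6 was called in 6 of 13 alternative settings and the other 4 genes in 8 to 10. Without a mean-variance trend, or with only 1 sgCbfb library kept, no tested gene was called, Cbfb included.

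The libraries held 3189035 to 3907936 reads counted on genes, so that 1 read was worth 0.256 to 0.314 CPM. The ribosomal RNA gene Rn45s took 11.3% to 13.9% of them. Cbfb mRNA itself was at 295 and 285 reads in sgNT cells and at 125 and 125 in sgCbfb cells, with a log2 fold change of -1.27 (SE 0.12). Such end reads show the amount of mRNA and do not read the edit itself. For the protein, the study reports an immunoblot check that CBFβ was deleted in edited MC38 cells. Of 10 epithelial marker genes, the libraries held only 5 to 7 reads together, and Krt18, Vil1, Cldn7 and Lgals4 had none, so the epithelial origin in the label was not visible in these markers. Of 10 fibroblast or mesenchymal markers, Pdgfra, Dcn, Col3a1 and Vim had at least 10 reads in every library and Lum and Thy1 had none. The summed level of the 10, mostly Vim, was 2565 and 2702 CPM with sgNT and 2354 and 2258 CPM with sgCbfb. Among these markers Col3a1, a fibrillar collagen gene, was lower in sgCbfb cells, at 386 and 354 against 217 and 197 reads (log2 fold change -0.90, limma adjusted p = 2.46e-06). The other fibroblast markers tested were not called. Pdgfra, a growth factor receptor gene, had 121 and 91 against 169 and 152 reads (0.53, limma adjusted p = 0.0515). Vim was at -0.18 (limma adjusted p = 0.0538), Dcn at -0.17, Col1a1 at 0.41 and Pdgfrb at 0.82, the last 2 with few reads. Col1a2 had at most 2 reads a library and Postn at most 1. The 10 haematopoietic markers summed to 0.600 to 2.51 CPM and the 10 endothelial markers to 2 to 4 reads a library. The part of any such cells in the results was not tested, and in bulk RNA fewer cells of a type and less RNA per cell cannot be told apart.

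RUNX factors with CBFβ bind the DNA words TGTGGT and TGCGGT, so the promoters of the members were read for both words on both strands. RefSeq windows of 300 bases in the build GRCm38.p6, running from 250 bases before to 50 bases after each start, were found for all 10 members and numbered 14, since some genes have several starts. A word was present in 2 of the 14 windows (14.3%), compared with 22.4% of the 32851 windows of all genes. TGTGGT alone was in 16.8% of all windows and TGCGGT alone in 6.45%. The windows shown were chosen because they hold the member that passed the test and the only 2 members with a word. They are the single Igfbp6 window at chr15:102143936-102144235 (plus strand), the Igfbp3 window at chr11:7213874-7214173 (minus strand) and 1 of the Igf2 windows at chr7:142661222-142661521 (minus strand). Each is written 5′ to 3′ along the gene's strand, and capitals mark the word.
Igfbp6: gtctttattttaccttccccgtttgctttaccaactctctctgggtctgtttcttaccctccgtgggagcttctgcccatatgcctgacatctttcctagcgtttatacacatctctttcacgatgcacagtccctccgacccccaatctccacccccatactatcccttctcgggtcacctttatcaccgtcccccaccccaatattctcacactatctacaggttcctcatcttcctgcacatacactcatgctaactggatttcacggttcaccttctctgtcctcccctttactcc
Igfbp3: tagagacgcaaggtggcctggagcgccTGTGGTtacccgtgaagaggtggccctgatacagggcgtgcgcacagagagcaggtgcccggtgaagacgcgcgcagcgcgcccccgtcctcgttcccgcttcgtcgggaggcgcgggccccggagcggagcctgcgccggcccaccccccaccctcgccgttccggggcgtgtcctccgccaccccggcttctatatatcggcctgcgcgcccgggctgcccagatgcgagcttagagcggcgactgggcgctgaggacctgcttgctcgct
Igf2: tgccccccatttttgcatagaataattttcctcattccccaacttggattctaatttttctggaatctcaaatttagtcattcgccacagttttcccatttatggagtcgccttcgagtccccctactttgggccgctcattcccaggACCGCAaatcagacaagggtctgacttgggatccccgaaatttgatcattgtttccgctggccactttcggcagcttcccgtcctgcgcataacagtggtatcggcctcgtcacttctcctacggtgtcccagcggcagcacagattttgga
The word TGTGGT lay 223 bases before the Igfbp3 start. In the Igf2 window the capitals read TGCGGT on the other strand, 102 bases before the start. The Igfbp6 window held neither word on either strand, which says only that these letters are not in this window. The RefSeq start behind this window lies upstream of the Igfbp6 start in the GENCODE M21 annotation. Among the genes called outside the members, windows of Sgk1 held TGTGGT 249 and 81 bases before their starts. Another Sgk1 window held TGCGGT 193 bases before its start, and the rest held neither word. The Irs1 and Cited2 windows held neither word, and no window was found for Igf2bp1. A match of letters is no measure of binding, and no binding data were used here.

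The ligands were scarce. Igf1 (chr10:87858265-87937042 in GRCm38) had 3 reads in sgCbfb library 1, or 0.768 CPM, and none in the other 3 libraries. It therefore missed the filter on low values and was not tested. Igf2 (chr7:142650766-142666816), the imprinted fetal growth factor, had 14 and 33 reads under sgNT against 17 and 15 under sgCbfb. These reads correspond to 4.12 and 9.89 CPM, and to 4.35 and 4.70 CPM. The second sgNT library stood above the other 3, which lay close together, and the groups overlapped. Its exact Poisson interval of 22.7 to 46.3 reads overlapped only narrowly with the 7.65 to 23.5 reads of the first sgNT library (these intervals cover counting error only). On the deposited log2 scale Igf2 was at 2.81 ± 0.82 (SD, n = 2) in sgNT cells and 2.35 ± 0.071 in sgCbfb cells. The log2 fold change of -0.46 (SE 0.37, 95% interval -1.22 to 0.30) did not pass the limma test (adjusted p = 0.621). Without the second sgNT library it was 0.12, so its direction rested on that library. A same-strand gene model of the GENCODE M21 annotation that is not a row of the deposited table overlaps the last 500 bases of Igf2, and how reads in such an overlap were counted is not given in the sources used here.

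Both receptors were detected in every library. Igf1r (chr7:67952827-68233668, 21 exons), the signalling receptor, had 111 and 95 reads with sgNT and 106 and 101 with sgCbfb, or 32.7 and 28.5 CPM against 27.1 and 31.7 CPM. The groups overlapped, with the lowest and the next to highest values both in sgCbfb cells. The log2 fold change was -0.06 (SE 0.16, 95% interval -0.38 to 0.27, adjusted p = 0.915), and it changed sign when sgNT library 1 (0.040) or sgCbfb library 1 (0.053) was left out. Igf2r (chr17:12682406-12769664, 48 exons), the clearance receptor, had 151 and 168 reads under sgNT against 130 and 142 under sgCbfb. In CPM these were 44.5 and 50.4 against 33.3 and 44.5, so that sgCbfb library 2 was level with sgNT library 1 and the groups overlapped. The log2 fold change of -0.29 (SE 0.14, 95% interval -0.59 to 0.0046) was not called, with an adjusted p of 0.344. It was -0.087 without sgCbfb library 1 and -0.50 without sgCbfb library 2. Igf2r was more abundant than Igf1r in each library, by 1.36 and 1.77 reads per Igf1r read with sgNT and 1.23 and 1.41 with sgCbfb. The log2 ratio of Igf1r to Igf2r, from the deposited values, was -0.62 ± 0.26 (SD, n = 2) in sgNT cells and -0.39 ± 0.14 in sgCbfb cells, and these overlapped (two-sided exact permutation p = 0.667, where the smallest possible is 0.333). The antisense RNA Airn, which silences Igf2r in cis on the paternal chromosome, overlaps the gene but not its last 500 bases. It had 3 to 7 reads a library.

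**Figure D1:**
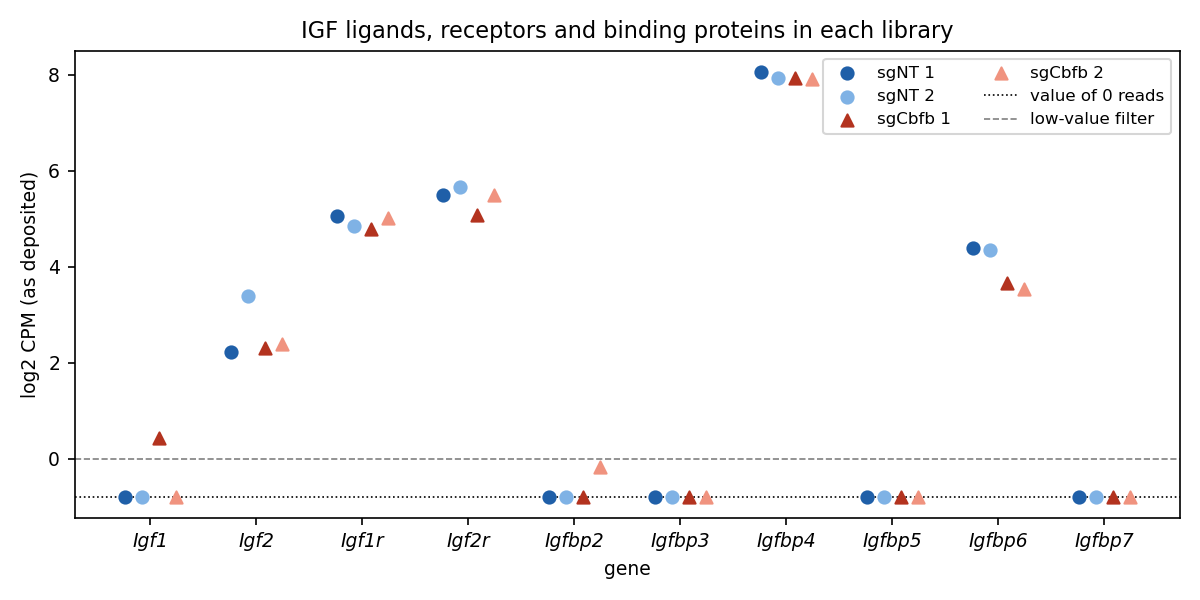
Level of each IGF member in each library, as log2 CPM on the vertical axis; circles are sgNT and triangles sgCbfb libraries, the dotted line is the value of 0 reads and the dashed line the low-value filter. Of the 5 genes above the filter in every library, Igfbp6 is the only one whose sgNT and sgCbfb points do not overlap.

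Among the binding proteins, Igfbp4 and Igfbp6 were the only members with enough reads to test. Igfbp4 (chr11:99041244-99054392), the carrier that the protease PAPP-A cleaves to release IGF, had 905 and 812 reads with sgNT and 956 and 764 with sgCbfb. Its level of 266 and 243 CPM with sgNT and 245 and 240 CPM with sgCbfb lay above that of 94.6% of the tested genes. The groups overlapped, and the log2 fold change of -0.07 (SE 0.071, 95% interval -0.22 to 0.074, adjusted p = 0.706) was not called.

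Igfbp6 (chr15:102144362-102149511, 4 exons in GENCODE M21) had 69 and 66 reads under sgNT against 47 and 35 under sgCbfb. In CPM these were 20.3 and 19.8 against 12.0 and 11.0, a level above that of 43.3% of the tested genes. Both sgCbfb libraries were below both sgNT libraries, and replicates lay close together within each group. The log2 levels were 4.37 ± 0.026 (SD, n = 2) in sgNT cells and 3.59 ± 0.089 in sgCbfb cells. The log2 fold change was -0.77 (SE 0.21, 95% interval -1.21 to -0.33), which places the sgCbfb level between 43.1% and 79.4% of sgNT, with a limma p of 0.00138 and an adjusted p of 0.0490. The adjusted p lay just under the threshold of 0.05, and the gene held rank 344 by p among all tested genes, of which 192 were called higher and 153 lower. The exact Poisson intervals were 53.7 to 87.3 and 51.0 to 84.0 reads for sgNT and 34.5 to 62.5 and 24.4 to 48.7 reads for sgCbfb. That of sgCbfb library 1 overlapped those of both sgNT libraries, and that of sgCbfb library 2 overlapped neither. The call was kept in 6 of 13 alternative settings. It ended without the low-value filter (adjusted p = 0.0887), with quantile normalization, without a mean-variance trend and when any single library was left out (0.211 to 0.551), while the log2 fold change stayed between -0.84 and -0.71 in all of these settings.

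Over all tested genes, 1.57% were called higher and 1.25% lower in sgCbfb cells, and 16.8% had groups that did not overlap with sgCbfb lower. Of the 5 members tested, 0 were called higher by limma in the setting reported and in the 13 alternatives, voom included, and 0 were higher at an unadjusted p under 0.05. In the other direction 1 was called lower. The same gene, Igfbp6, was also the only member with non-overlapping groups. All 5 tested members had negative log2 fold changes, with a median of -0.29, whereas 5249 of all 12207 were negative and their median was 0.039. The signs of the members were kept under quantile normalization, median centring and both voom scalings, while leaving out single libraries turned Igf2 and Igf1r as given above. The median of the 5 was -0.15 without sgNT library 2, -0.088 without sgCbfb library 1 and -0.50 without sgCbfb library 2. Of the called genes 55.7% were higher. With voom on the recovered reads the share was 56.8% with library totals (258 higher and 196 lower) and 42.8% with TMM scaling, the trimmed mean of M-values, (182 higher and 243 lower).

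The remaining binding proteins were at or near 0. Igfbp2 (chr1:72824503-72852474) had 1 read in sgCbfb library 2 and none in the others. Igfbp3 (chr11:7206086-7213923), the main carrier of IGFs in serum, and Igfbp5 (chr1:72857932-72874884), a carrier known from bone and muscle, had 0 reads in all 4 libraries. Igfbp7 (chr5:77349240-77408041) also had 0. Taking 3 reads as the one-sided 95% limit of a count of 0, where intervals given for other genes are two-sided, such a count allows up to 0.768 to 0.941 CPM in a single library and 0.217 CPM over the 13828279 reads of all 4, for counting error only. For Igfbp7 the last 85 bases overlap Polr2b, an RNA polymerase subunit gene on the opposite strand with 318 to 400 reads a library, and whether the counting used strand is not given in the sources used here.

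The composition of the binding-protein pool followed from these levels. Summed over Igfbp2 to Igfbp7 the libraries held 974 and 878 reads with sgNT and 1003 and 800 with sgCbfb, or 287, 263, 257 and 251 CPM. Igfbp4 made up 92.5% to 95.5% of them. The share of Igfbp6 was 7.08% (exact Clopper-Pearson 95% interval 5.55 to 8.88) and 7.52% (5.86 to 9.46) in sgNT cells. In sgCbfb cells it was 4.69% (3.46 to 6.18) and 4.38% (3.07 to 6.03). There were 13.1 and 12.3 Igfbp4 reads per Igfbp6 read with sgNT and 20.3 and 21.8 with sgCbfb, so the groups did not overlap. The log2 ratio of Igfbp6 to Igfbp4, taken from the deposited values with their prior count, was -3.63 ± 0.066 (SD, n = 2) in sgNT cells and -4.33 ± 0.068 in sgCbfb cells. The difference of -0.70 had a two-sided exact permutation p of 0.333, the smallest that 2 libraries against 2 can give.

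**Figure D2:**
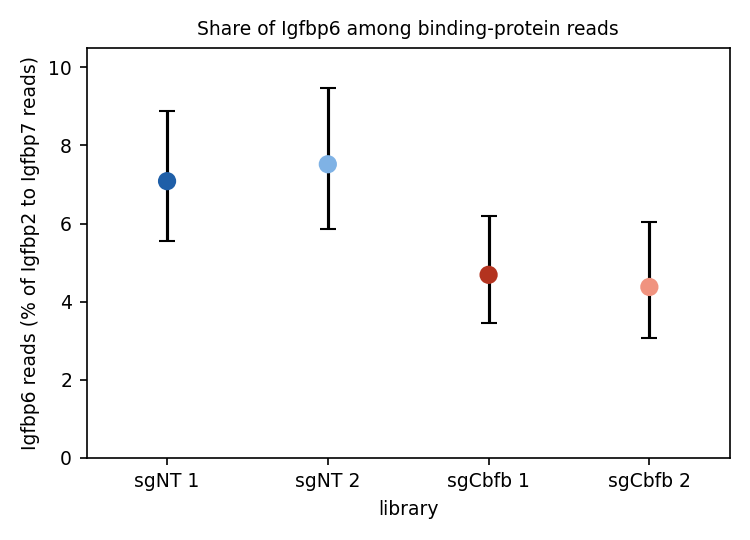
Igfbp6 reads as a percentage of all Igfbp2 to Igfbp7 reads (vertical axis) in each of the 4 libraries (horizontal axis), with exact 95% Clopper-Pearson intervals as bars. The sgNT libraries sit at 7.08% and 7.52% and the sgCbfb libraries at 4.69% and 4.38%, with intervals that overlap between groups.

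Genes that act around the members were taken as 6 further lists of 117 genes, from carriers and proteases to FOXO targets. Of these 98 were tested, 1 was called higher and 3 lower, against the 1.57% and 1.25% over all tested genes. Their log2 fold changes were positive for 50 and negative for 48, with a median of 0.011, and 19 of the 98 (19.4%) had an unadjusted limma p under 0.05, beside 1820 of all 12207 tested genes (14.9%).

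Closest to the binding proteins are other carriers and the enzymes that cut them or mature the IGF precursors. Of 13 such genes 5 were tested and 0 were called by limma or by voom (1 at an unadjusted p under 0.05), with a median log2 fold change of 0.017, and the tested genes included the stanniocalcin Stc2, an inhibitor of PAPP-A, at 39 and 38 reads under sgNT against 44 and 29 under sgCbfb. The proprotein convertase gene Furin was the most abundant, at 282 and 302 reads with sgNT and 389 and 292 with sgCbfb (log2 fold change 0.14, limma adjusted p = 0.563). The secreted protease gene Htra1 had 211 and 185 against 187 and 160 reads (-0.26, adjusted p = 0.303), and the convertase gene Pcsk7 had 53 and 35 against 41 and 51 (0.02, adjusted p = 0.987). Pappa, which encodes PAPP-A, had at most 2 reads a library. Igfbp1, Igfals, Igfbpl1, Pcsk5 and Pcsk6 had none.

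Of 8 genes for insulin receptors and the mannose 6-phosphate system, 7 were tested and 0 were called by limma or by voom (1 at an unadjusted p under 0.05), with a median of -0.08. Insr, the insulin receptor gene, had 34 and 34 reads under sgNT against 33 and 30 under sgCbfb (-0.17, adjusted p = 0.837), fewer than Igf1r in each library. M6pr, the cation-dependent mannose 6-phosphate receptor gene, had 284 and 314 against 323 and 223 reads (-0.22, adjusted p = 0.334). Gnptab and Nagpa, whose enzymes make the mannose 6-phosphate tag, were at -0.06 and -0.08, and Plaur, the urokinase receptor gene, was at 0.37 (adjusted p = 0.406) with overlapping groups.

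Igf2bp1 stood apart in the list of IGF2 mRNA-binding proteins and imprinted neighbours, of which 4 of 7 genes were tested. Igf2bp1 (chr11:95957163-96005940) encodes an oncofetal protein that binds Igf2 and other mRNAs and governs their stability and translation. It had 14 and 8 reads with sgNT and 45 and 34 with sgCbfb, with no overlap. The log2 level went from 1.903 ± 0.47 (SD, n = 2) to 3.54 ± 0.075, a log2 fold change of 1.64 (SE 0.33, 95% interval 0.96 to 2.32, adjusted p = 0.00361). The call rests on low counts and ended when sgNT library 2 was left out (adjusted p = 0.0711), when either sgCbfb library was left out, with quantile normalization (0.128) and without a mean-variance trend (0.173). Its relatives Igf2bp2, at 325 and 379 against 426 and 355 reads (0.08), and Igf2bp3, at 67 and 89 against 74 and 77 reads (-0.10), both had overlapping groups and were not called. The end of Igf2bp3 overlaps Malsu1, a gene on the opposite strand with 100 to 167 reads a library, by 1529 bases, so with the use of strand not given its reads are uncertain. Airn was not called either (0.13, adjusted p = 0.941). H19, the imprinted RNA beside Igf2, had 2 reads in 1 library.

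Of 28 adaptor genes of the IGF and insulin receptors 24 were tested, 1 was called lower and 0 higher, with a median of 0.055. The gene called was Irs1 (chr1:82233101-82291416), the substrate that links IGF1R to PI3 kinase. It had 243 and 228 reads under sgNT against 129 and 84 under sgCbfb, and its groups lay well apart. The log2 level went from 6.14 ± 0.046 (SD, n = 2) to 4.91 ± 0.23, a log2 fold change of -1.23 (SE 0.13, 95% interval -1.51 to -0.95, adjusted p = 1.24e-06). An antisense gene model that is not a row of the deposited table overlaps its last 500 bases. Irs2, the other main substrate gene, had 27 and 22 against 21 and 18 reads (-0.36, 95% interval -1.003 to 0.279, adjusted p = 0.654), and whether the changes of Irs1 and Irs2 differ was not tested. Irs3 and Irs4 had no reads. The most abundant genes of this list were not called in the setting reported. Rack1, a scaffold protein gene, was at 0.14 (adjusted p = 0.166) and was called higher with voom on library totals but not with TMM scaling. The ubiquitin ligase gene Nedd4 was at 0.06, the adaptor gene Grb2 at 0.10 and the phosphatase gene Ptpn11 at 0.04.

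All 36 genes of the PI3 kinase, AKT and mTOR list were tested, with a median of -0.0054, and 1 was called lower and 0 higher. The gene called was Sgk1 (chr10:21882184-21999903), a kinase related to AKT, at 311 and 271 reads with sgNT and 202 and 152 with sgCbfb. Its log2 fold change was -0.79 (SE 0.11, adjusted p = 5.55e-05), with no overlap. The kinase gene Akt1 was at 0.14 (adjusted p = 0.367), the translation factor gene Eif4e at -0.01, its inhibitor gene Eif4ebp1 at 0.07 and the ribosomal protein gene Rps6 at -0.22 (adjusted p = 0.0884). Pik3r1, the PI3 kinase regulatory subunit gene, was singled out after its values were seen because it lay just beyond the threshold, with 296 and 284 against 254 and 220 reads (-0.36, adjusted p = 0.0542). Pik3r1 and Rps6 were both called lower in each voom fit.

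Of 25 FOXO factors and targets 22 were tested, with a median of -0.021, and 1 was called lower and 0 higher. The gene called was Cited2 (chr10:17723218-17725674), a transcriptional co-regulator gene, at 883 and 890 reads under sgNT against 627 and 607 under sgCbfb (log2 fold change -0.59, SE 0.080, adjusted p = 3.51e-05). Its call ended with quantile normalization (adjusted p = 0.0646), without a trend and when either sgCbfb library was left out. Klf6, a zinc-finger factor gene, was at 0.09, the pseudokinase gene Trib1 at -0.15 and Sod2, the mitochondrial superoxide dismutase gene, at -0.08, none of them called. Foxo1, again named after its values were seen, had 26 and 47 reads with sgNT and 75 and 59 with sgCbfb (0.82, adjusted p = 0.0842). Foxo1 was called higher with voom on library totals but not with TMM scaling, and also when sgNT library 2 was left out (1.24, adjusted p = 0.0186), against 0.40 without sgNT library 1.

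**Figure D3:**
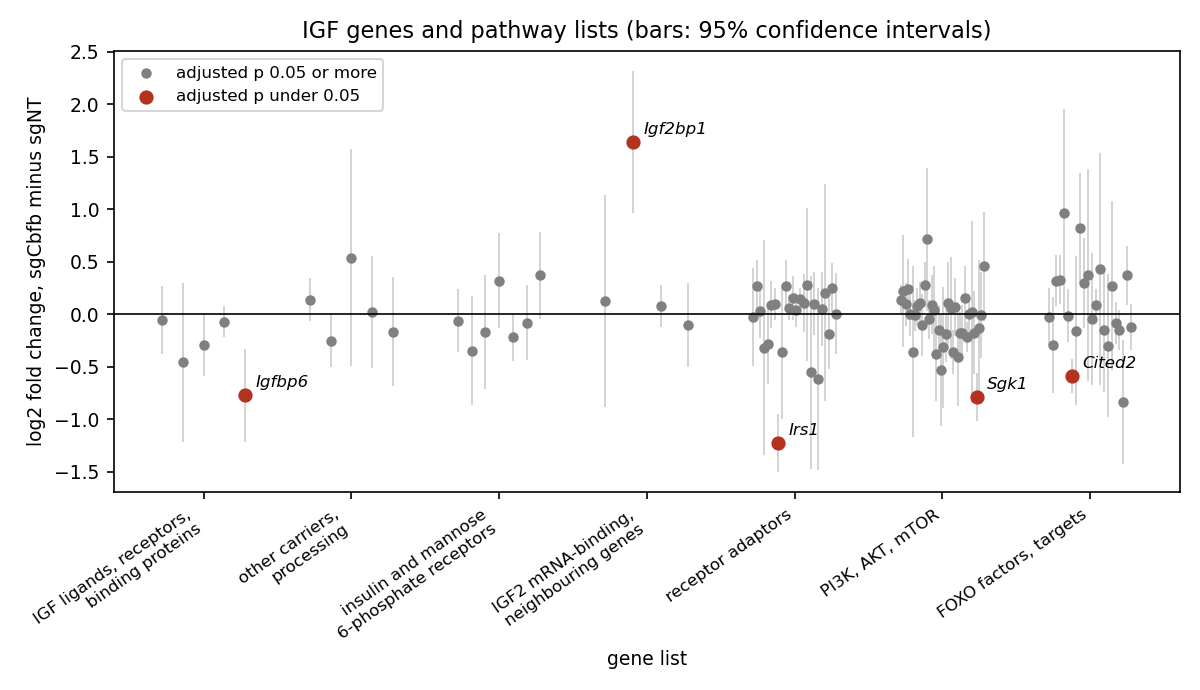
Log2 fold change (sgCbfb minus sgNT, vertical axis) of every tested gene in the member list and the 6 further lists (horizontal axis), with 95% confidence intervals as bars and genes with a limma adjusted p under 0.05 in red. The called genes are Igfbp6, Irs1, Sgk1 and Cited2 below 0 and Igf2bp1 above it, at 1.64.

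Leaving out either sgCbfb library left 0 limma calls over all 12207 genes, with 1104 and 1169 genes still at an unadjusted p under 0.05. Such a fit has 1 residual degree of freedom a gene, takes its spread from the 2 sgNT libraries and assumes that the lone sgCbfb library varies like them. The fit without a mean-variance trend also gave 0 calls over all genes. The 5 called genes differed in how far they held under the 13 alternative settings. Irs1 was called in 10, with log2 fold changes between -1.39 and -1.07, and Sgk1 in 10, with values between -0.88 and -0.70. Cited2 was called in 9 (-0.71 to -0.47), Igf2bp1 in 8 (1.31 to 1.97) and Igfbp6 in 6.

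**Figure D4:**
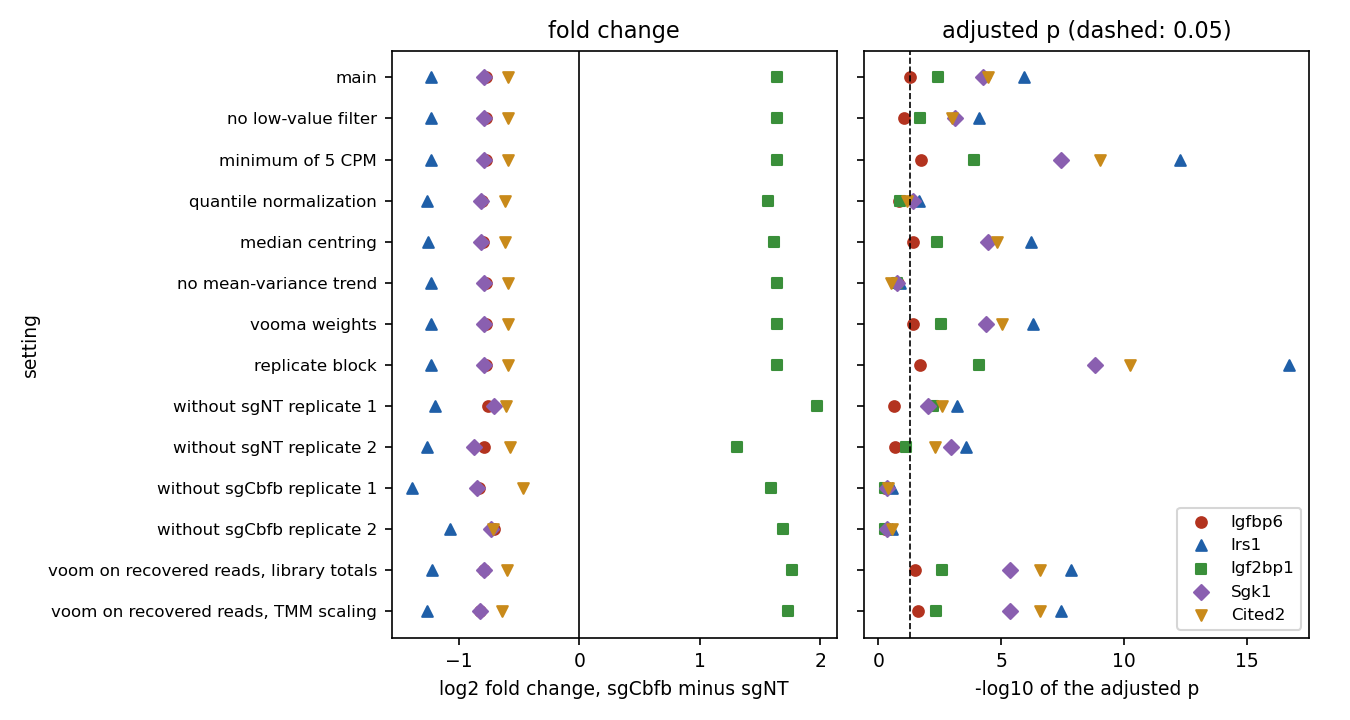
Log2 fold change (left, horizontal axis) and -log10 of the adjusted p (right, horizontal axis; dashed line at 0.05) of the 5 called genes in the setting reported and in 13 alternatives (rows). Each symbol keeps its side of 0 on the left in all settings, while on the right Igfbp6 lies close to the dashed line and all 5 genes fall short of it when either sgCbfb library is left out.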

How the data were processed

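Per the labels, the authors used cutadapt 1.9 for trimming, HISAT2 2.1.0 for alignment (GRCm38/mm10) and featureCounts 2.0.1 for counting by gene (versions from the submitters' processing notes; the study's methods name another release of the package that holds featureCounts). The deposited values are log2 CPM per gene and library. The annotation release and the use of strand are not given in the sources used here. Low values step by whole reads above a prior count of 2, so reads were recovered (99.99% or more of a library's values were whole to within 0.1). Recovered reads describe depth and feed the alternatives with voom, the test the study names. CPM values printed here are recovered reads scaled to the recovered library total.

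Groups came from the sample titles. Deposited log2 values were tested with limma 3.58.1 (R 4.3.3), two-sided and with a mean-variance trend. A gene entered if its log2 CPM reached 0 in 2 or more libraries, which gave 12207 genes, with Benjamini-Hochberg adjustment over all of them and a threshold of 0.05. Adding the prior count pulls fold changes of low genes towards 0. The test was tried on simulated data first. Members and lists were chosen with earlier results of these data known. The text names all 10 members, list genes past the threshold and up to 4 of the most abundant genes a list. Other list genes (Insr, Irs2, Irs3, Irs4, Pappa, Igfbp1, Igfals, Igfbpl1, Pcsk5, Pcsk6, H19, Pik3r1 and Foxo1) were chosen after their values were seen. Positions are from GENCODE M21 (GRCm38) and promoters from RefSeq (GRCm38.p6). Alternatives were no filter, a minimum of 5 CPM, quantile normalization, median centring, vooma weights, no trend, a block on replicate number, omission of each library in turn, and voom on recovered reads with library totals or TMM scaling (trimming 30% of ratios and 5% of levels).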

Additional observations from a re-analysis of the deposited data

How the results depend on the processing

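Each group has 2 libraries, the smallest with 3189035 reads, so genes with few reads carry large counting error and calls rest on the shared estimate of the spread. Over all genes, the 192 higher calls became 300 with a minimum of 5 CPM, 39 with quantile normalization and 0 without a trend (1461 genes at an unadjusted limma p under 0.05), and 0 to 115 with a library left out. The 153 lower calls became 44 with quantile normalization, 0 without a trend and 243 with TMM scaling, and 0 to 86 with a library left out. The member called lower, Igfbp6, was lost (0 members) without a filter, with quantile normalization, without a trend and with any library left out, where the count was 0 throughout. Of the other pathway genes, the 1 called higher became 2 with a minimum of 5 CPM (Foxo1 added), 3 with voom on library totals (Foxo1 and Rack1 added) and 0 with quantile normalization or no trend, and 0 to 1 with a library left out (without sgNT replicate 2 the 1 gene was Foxo1 in place of Igf2bp1). The 3 called lower became 5 with a minimum of 5 CPM, with median centring and with voom (Pik3r1 and Rps6 added), 2 with quantile normalization (Cited2 lost), 0 without a trend and 0 to 3 with a library left out. Cbfb stayed at -1.27 without a trend, where its call was lost (limma adjusted p = 0.115). With a library left out it lay between -1.41 and -1.12, and it was not called when only 1 sgCbfb library was kept. Igf2 turned from -0.46 to 0.12 without sgNT replicate 2 (range with a library left out -1.04 to 0.12), and Igf1r (range -0.17 to 0.053) to 0.040 without sgNT replicate 1 and 0.053 without sgCbfb replicate 1. What caused these shifts was not tested.

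What libraries with the same number have in common is not in the labels, and their deviations from the group means correlated at -0.0042. With the replicate number as a block, the replicate block fit called 320 genes higher over all genes, 2 pathway genes higher (Foxo1 added), 4 lower (Pik3r1 added) and Igfbp6 at an adjusted p of 0.0198. The alternative of another pseudocount was not run, since the deposited values are already log2.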
